A study of Mus musculus with 6 samples.

Results

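The death-associated protein kinases (DAP kinases) are described here as the 3 genes Dapk1, Dapk2 and Dapk3, taken by name from the 29955 gene names of a deposited table of RNA levels. The family was chosen by the measured TGF-β difference of Dapk2 in these same libraries, among the largest rises measured, so the TGF-β values of the family are a description, without a test. The libraries come from the MS-1 line, immortalised endothelium of the mouse pancreas, transfected with locked nucleic acid (LNA) inhibitors of microRNAs. An inhibitor of miR-31, an inhibitor of miR-27 and a negative-control inhibitor were each combined with 72 h of culture with 1 ng/ml TGF-β2 or without it. Each of these 6 conditions has 1 library, every library carries an inhibitor, and no untransfected cells were analysed here. Per the labels, all 6 libraries are of 1 cell line. Nothing in the labels tells whether separate cultures were transfected, so the spread between them may be technical.

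DAP kinases are serine/threonine kinases whose catalytic domains resemble that of myosin light chain kinase. Dapk1 and Dapk2 carry a calmodulin-binding segment that holds the kinase inactive until Ca2+/calmodulin binds, while Dapk3, also called ZIPK, lacks it and is held together by a leucine zipper. They have been linked to cell death, autophagy, membrane blebbing and the phosphorylation of myosin light chain, and in smooth muscle Dapk3 also acts on the myosin phosphatase. In human hepatoma cells TGF-β was reported to induce DAPK1 through Smad proteins.

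Levels are in FPKM, fragment counts scaled to transcript length and library depth, which can be compared between genes. Differences are on the scale log2(FPKM + 1) unless stated otherwise, which understates changes of genes below 1 FPKM. Of the 3 genes, 2 passed the filter of a mean of at least 1 FPKM, as did 11816 names in all. Dapk2 passed only through the libraries with TGF-β. The 10 endothelial markers looked up, among them Pecam1 and Cdh5, were all at 19.9 FPKM or more in every library, and their sum lay between 1779 and 1864 FPKM with TGF-β and between 1773 and 1902 without it. Single markers moved in both directions, with 2 of the 10 higher with TGF-β and 5 lower in limma. Emcn rose by 0.79 and Eng by 0.53, while the VEGF receptor gene Kdr fell by 0.80 and Robo4 by 0.49. The 13 markers of other cells summed to 15.9 to 19.9 FPKM with TGF-β and to 39.2 to 55.2 without it, of which the keratin gene Krt18 made up 11.4 to 15.8 FPKM with TGF-β and 38.2 to 54.0 without it. The pericyte marker Pdgfrb went the other way, at 2.70 to 3.29 FPKM with TGF-β and 0.615 to 0.824 without it, and the collagen gene Col1a1 was at 0.222 to 0.444 FPKM with TGF-β and at most 0.00620 without it. Of these 13, 11 were under 1 FPKM with TGF-β and 12 without it, and the leukocyte gene Cd3e and the insulin genes Ins1 and Ins2 were at or near 0. Their part in the results was not tested. The steps between low FPKM values gave relative depths of 81.2% to 90.1% of the deepest library, which was the negative control without TGF-β. The miR-31 library with TGF-β had 51 genes higher and 30 lower by at least 1 than its negative control, and the miR-27 library with TGF-β 13 and 10. Without TGF-β the miR-31 library had 10 higher and 21 lower, and the miR-27 library 14 and 21. The SD of these differences over all tested genes was 0.33 and 0.21 with TGF-β and 0.31 and 0.30 without it for the miR-31 and the miR-27 inhibitor. The fitted values of the DAP kinases are also given without the TGF-β-treated miR-31 library.

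Dapk2 was at 0.192 FPKM or less without TGF-β and among the better expressed of the filtered genes with it. It lies on chromosome 9, 66006033 to 66120049 (mm9). With the negative-control inhibitor Dapk2 stood at 24.4 FPKM with TGF-β, against 0.0838 FPKM without it. With the miR-31 inhibitor it stood at 34.4 FPKM with TGF-β, against 0.192 FPKM without it. With the miR-27 inhibitor the values were 29.8 FPKM with TGF-β and 0.125 FPKM without it. The mean was 29.5 ± 4.97 FPKM with TGF-β and 0.134 ± 0.0548 FPKM without it (SD over the 3 transfections).

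The ratios of these FPKM values were 292 for the negative control, 179 for the miR-31 and 238 for the miR-27 transfection. They rest on few fragments in the denominator. From the steps of low values, about 15, 30 and 18 fragments lay behind the 3 levels without TGF-β in the order negative control, miR-31 and miR-27 inhibitor, so the order of the 3 ratios is imprecise. On the log2 scale the fitted difference was 4.74 ± 0.07 (SE of the fit), and 4.66 without the TGF-β-treated miR-31 library. With a pseudocount of 0.1 FPKM it was 6.998, which shows how far the size depends on the constant added. Among the 11816 genes, only the short RNA Snora75 had a higher fitted value, at 5.57 ± 1.69 (limma adjusted p = 0.0455), and Tnnt2, the cardiac troponin T gene, followed at 4.69 ± 0.04. Within single transfections Dapk2 ranked 6 from the top in the negative-control and the miR-31 transfection and 5 in the miR-27 transfection. Its level lay above 69.6% to 78.1% of the filtered genes with TGF-β and above 0.144% to 0.220% of them without it. The low share without TGF-β follows from the filter, which left out the genes that were low in every library. It does not place Dapk2 among all genes.

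A second row of the table, spelled DAPK2, has the same place in the genome. It was listed at 0.120, 0.166 and 0.207 FPKM with TGF-β in the control-inhibitor, miR-31 and miR-27 transfections, and at 0 in all 3 libraries without TGF-β. A listed 0 is not proof of missing RNA here, because Eef1a1, needed for translation in most cells, was also at 0 throughout. The DAPK2 row moved with Dapk2 but held little of the signal of the locus, and how reads were divided between the names is not given in the sources used here.

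**Figure D1:**
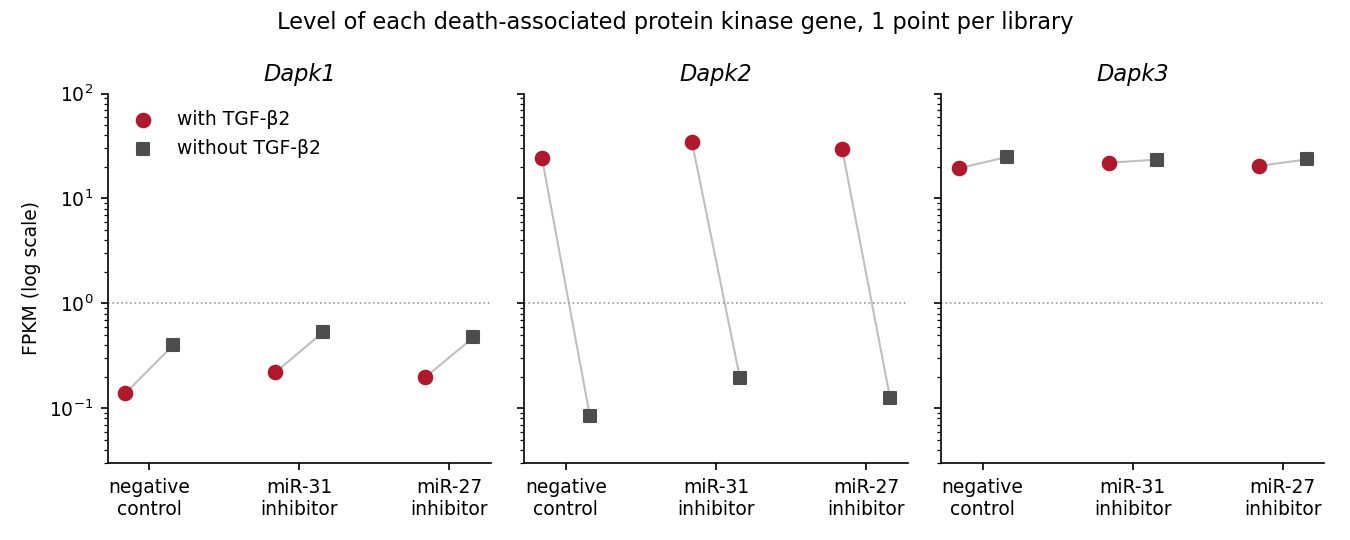
FPKM of Dapk1, Dapk2 and Dapk3 on a log axis, 1 point per library, with TGF-β2 (red circles) to the left of without (grey squares) in each transfection, lines joining the pair and a dotted line at 1 FPKM. Dapk2 is at 24.4 to 34.4 FPKM with TGF-β2 and at 0.0838 to 0.192 FPKM without it, Dapk1 is lower with TGF-β2 in each pair, and Dapk3 stays between 19.4 and 24.8 FPKM.

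The promoter of Dapk2 is shown because its RNA was near 0 without TGF-β and above the level of Dapk3 with it. The promoter of Dapk3, the relative well expressed in every library, is shown beside it. Both run from 250 bases before to 50 bases after a transcription start in RefSeq (build GRCm38.p6, plus strand), and the capitals mark 4 motifs searched on both strands. These were the Smad box CAGAC, the GC-rich Smad motif GGCGCC, the AP-1 motif TGANTCA and the cyclic AMP response element TGACGTCA.

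Dapk2, chr9:66157976-66158275: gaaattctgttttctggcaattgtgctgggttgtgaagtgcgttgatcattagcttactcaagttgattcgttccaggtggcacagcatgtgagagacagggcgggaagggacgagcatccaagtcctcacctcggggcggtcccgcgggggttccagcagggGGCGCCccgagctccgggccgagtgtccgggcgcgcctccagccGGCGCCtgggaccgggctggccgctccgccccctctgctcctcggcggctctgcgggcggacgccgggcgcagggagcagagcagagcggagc

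Dapk3, chr10:81182757-81183056: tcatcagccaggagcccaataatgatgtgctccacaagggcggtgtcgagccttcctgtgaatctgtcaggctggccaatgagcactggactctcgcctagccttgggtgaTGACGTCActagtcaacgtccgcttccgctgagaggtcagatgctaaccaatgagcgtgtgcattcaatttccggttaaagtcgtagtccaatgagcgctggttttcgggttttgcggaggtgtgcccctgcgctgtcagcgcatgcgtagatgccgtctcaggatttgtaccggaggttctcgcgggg

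The Dapk2 window held GGCGCC at 2 places, and 2.04% of 32851 promoter windows in RefSeq held 2 or more (11.9% held at least 1). The Dapk1 window held 1 copy and the 3 windows of Dapk3 none. The first Dapk3 window held TGACGTCA, present in 1.79% of windows. CAGAC, found in 49.6% of windows, and TGANTCA, found in 7.81%, were in none of the 5 windows of the 3 genes. The Dapk2 window also held 4 copies of GGGCGG, the motif of Sp1 and KLF factors, as did 5.49% of windows with 4 or more. The G and C content was 67.7% for Dapk2, 77.7% for Dapk1 and 56.0%, 64.3% and 51.7% for the windows of Dapk3. Among all windows these lay at percentiles 86.8, 97.9 and 59.7, 80.4 and 45.4. The shares given for the motifs are over windows of any G and C content. Such matches describe letters in a window and show no binding.

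Dapk1 was low in every library and lower with TGF-β in all 3 transfections. Dapk1 is the founding member of the family and a large protein with ankyrin repeats and a death domain, which Dapk2 and Dapk3 lack. It lies on chromosome 13, 60703308 to 60864547 (mm9). It stood at 0.139 FPKM with TGF-β and 0.4002 without it in the negative-control transfection. With the miR-31 inhibitor the values were 0.219 FPKM with TGF-β and 0.534 without it. With the miR-27 inhibitor they were 0.198 FPKM with TGF-β and 0.474 without it.

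The mean of Dapk1 was 0.185 ± 0.0418 FPKM with TGF-β and 0.469 ± 0.0672 FPKM without it (SD over the 3 transfections). The level with TGF-β was 34.7%, 41.1% and 41.8% of that without it in the control-inhibitor, miR-31 and miR-27 transfections. About 68, 100 and 87 fragments lay behind the levels with TGF-β and about 220, 260 and 220 behind those without it, in the same order of transfections. Dapk1 is a long transcript, so these counts are higher than its FPKM would give for a short one. It missed the filter, and a fit with no filter gave -0.31 ± 0.01 (SE of the fit), -0.30 without the TGF-β-treated miR-31 library, or -1.0004 with a pseudocount of 0.1. The SE was 0.036 with the trend and robust options of limma and 0.046 with a pseudocount of 0.1. It comes from another fit than the SE of Dapk2 and Dapk3 and does not show a more precise value.

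Dapk3 changed least of the 3 genes, with a lower value under TGF-β in each pair. It lies on chromosome 10, 80645752 to 80655942 (mm9). In the negative-control transfection it stood at 19.4 FPKM with TGF-β and 24.8 without it. With the miR-31 inhibitor the values were 21.9 FPKM with TGF-β and 23.4 without it. With the miR-27 inhibitor they were 20.4 FPKM with TGF-β and 23.5 without it. The mean was 20.5 ± 1.27 FPKM with TGF-β and 23.9 ± 0.756 FPKM without it (SD over the 3 transfections). The fitted difference was -0.21 ± 0.06 (SE of the fit), and -0.17 after upper-quartile scaling. It ranked 2644 from the lowest among the 11816 genes, whose median was -0.018. The level with TGF-β was 78.1%, 93.4% and 86.6% of that without it in the control-inhibitor, miR-31 and miR-27 transfections. The pair with the miR-31 inhibitor had the smallest difference, and without its library with TGF-β the fitted value was -0.27.

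The order of the 3 genes changed with TGF-β. Without it Dapk3 made up 98.1%, 97.0% and 97.5% of the summed FPKM of the family in the control-inhibitor, miR-31 and miR-27 transfections, Dapk1 came next and Dapk2 was lowest. With it Dapk2 made up 55.6%, 60.9% and 59.1% of the sum, Dapk3 came next and Dapk1 was lowest. The sum itself was 43.9 FPKM with TGF-β and 25.3 without it in the negative-control transfection. It was 56.5 and 24.1 FPKM with the miR-31 inhibitor, and 50.4 and 24.1 FPKM with the miR-27 inhibitor, with TGF-β first. With TGF-β the level of Dapk2 was 1.26, 1.57 and 1.46 times that of Dapk3 in the same order of transfections. In bulk RNA a higher level in each cell and a larger share of cells with the transcript cannot be told apart.

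**Figure D2:**
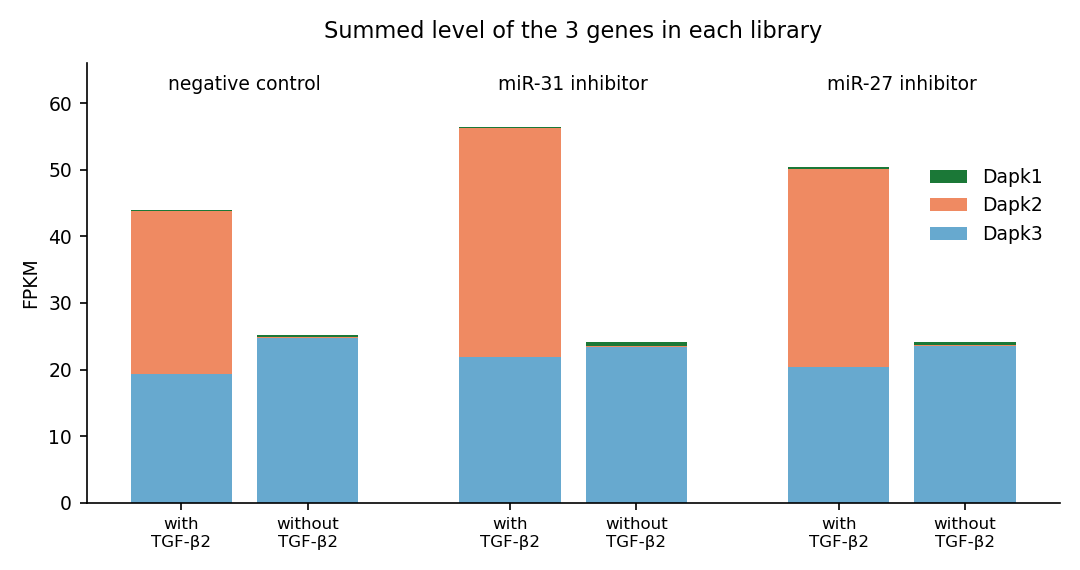
Stacked FPKM of Dapk3 (blue), Dapk2 (orange) and Dapk1 (green) in each of the 6 libraries, with TGF-β2 to the left of without in each transfection. The sum is 43.9 to 56.5 FPKM with TGF-β2 and 24.1 to 25.3 FPKM without it, and the part added is Dapk2.

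The inhibitors were compared next, a contrast that the choice of the family did not use. The mature microRNAs are shown because their seeds, bases 2 to 8 in capitals, set which transcripts they can pair with. The labels name miR-31 and miR-27 without an arm, and the arms most often meant are given, from RefSeq (GRCm38.p6).

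mmu-miR-31-5p: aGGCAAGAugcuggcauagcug

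mmu-miR-27a-3p: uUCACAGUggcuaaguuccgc

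mmu-miR-27b-3p: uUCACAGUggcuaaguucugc

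The miR-27a and miR-27b forms share 1 seed. Among the 3 genes, a 7-base match to the miR-31-5p seed was found once, in the 3′ UTR of Dapk2 (535 bases in GENCODE vM21, positions 471 to 477 counted from the base after the stop codon), and no match to the miR-27 seed was found. The longest annotated 3′ UTRs of Dapk1 and Dapk3, of 934 and 253 bases, held neither. The match is shown in capitals with the bases around it.

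Dapk2 site: gtctgccagccTCTTGCCagcccactgtg

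An A follows the match, which makes it an 8-base site. Of 9550 tested genes with an annotated 3′ UTR, 13.3% held the 7-base site for miR-31-5p, 4.15% the 8-base site and 17.9% the 7-base site for miR-27. A match in letters does not show that the microRNA acts there.

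With and without TGF-β, Dapk2 was higher under both inhibitors than under the negative control, but neither difference passed over all genes tested. With the miR-31 inhibitor it was at 34.4 FPKM, against 24.4 with the negative control, in the presence of TGF-β. Without TGF-β it was at 0.192 FPKM with the miR-31 inhibitor, against 0.0838 with the negative control. With the miR-27 inhibitor it was at 29.8 against 24.4 FPKM with TGF-β and at 0.125 against 0.0838 FPKM without it. Over both states the fitted difference was 0.31 ± 0.09 (SE) for the miR-31 inhibitor, with a 95% interval of 0.07 to 0.54, an unadjusted limma p of 0.0204 and an adjusted p of 0.236. Without the TGF-β-treated miR-31 library it was 0.19, and without the negative control with TGF-β 0.17. It was larger when a library without TGF-β was left out, at 0.42 for the miR-31 library and 0.45 for the negative control. With a pseudocount of 0.1 FPKM it was 0.58, so its size depends on the constant added. For the miR-27 inhibitor it was 0.16 ± 0.09, with an interval of -0.07 to 0.40 and a limma adjusted p of 0.4998. That value was 0.025 without the negative control with TGF-β and 0.30 without the negative control that had no TGF-β. With a pseudocount of 0.1 FPKM it was 0.29. Both contrasts share the negative-control libraries. Of the 9550 genes with an annotated 3′ UTR, 2.73% had a larger miR-31 difference than Dapk2, as did 2.53% of the 1267 with the 7-base site and 2.78% of the 396 with the 8-base site. Without the TGF-β-treated miR-31 library these shares were 7.12%, 9.16% and 9.34%. The median miR-31 difference was 0.011 over all 9550 and 0.019 and 0.027 over the genes with the 7-base and 8-base site.

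Dapk3 was close to the negative control with either inhibitor. The fitted difference was 0.045 ± 0.073 for the miR-31 inhibitor, with a 95% interval of -0.14 to 0.23 and a limma adjusted p of 0.749. It was -0.052 without the negative control with TGF-β and -0.043 without the TGF-β-treated miR-31 library. For the miR-27 inhibitor the interval was -0.19 to 0.19. Dapk1 was higher with both inhibitors in both states, at 0.219 and 0.198 FPKM with the miR-31 and miR-27 inhibitors, against 0.139 with the negative control, in the presence of TGF-β. Without TGF-β it was at 0.534 and 0.474 FPKM, against 0.4002. In the fit with no filter the difference was 0.12 for the miR-31 inhibitor, 0.13 without the TGF-β-treated miR-31 library, and 0.073 for the miR-27 inhibitor. With a pseudocount of 0.1 FPKM it was 0.38 for the miR-31 and 0.26 for the miR-27 inhibitor. The limma adjusted p in the fit with a pseudocount of 1 FPKM was 0.238 for the miR-31 and 0.335 for the miR-27 inhibitor. Of the 2 genes tested, 0 passed in limma for either inhibitor, beside 0.0339% of all genes for miR-31 and 0.00846% for miR-27. Of the 2, 1 had an unadjusted limma p under 0.05, Dapk2 with the miR-31 inhibitor. So did 2135 of all 11816 genes for the miR-31 inhibitor, and 1470 for the miR-27 inhibitor. Whether the TGF-β response of a gene differs between the transfections was not tested, with 1 library per condition.

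The relatives of the family did not share the size of the Dapk2 difference. Stk17b encodes DRAK2, the remaining mouse kinase of the DAP kinase group, and rose with TGF-β by 0.63 ± 0.04 (limma adjusted p = 3.64e-04). It stood at 11.7, 13.3 and 14.1 FPKM with TGF-β, against 7.16, 8.34 and 8.64 FPKM without it, in the control-inhibitor, miR-31 and miR-27 transfections. Dap, an unrelated small protein found in the same screen for death genes as Dapk1, rose by 0.65. Dap3, a mitochondrial ribosome protein, and Daxx, a histone chaperone, did not pass, at -0.10 and -0.00094.

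The TGF-β contrast called 50.2% of the tested genes, with 22.7% up and 27.5% down, and the counts that follow are to be read against these shares. Of 17 tested Ca2+/calmodulin-dependent and myosin light chain kinases, 3 rose and 8 fell, with a median of -0.040 beside -0.018 over all genes. Without either negative-control library 1 rose and 4 fell, and without either miR-27 library 1 and 5. Camk1d fell by 1.13 and Camk2d, the CaM kinase II isoform common in muscle, by 0.83. Camk2b rose by 0.52, and Kalrn, whose product carries a kinase domain, fell by 0.45. Mylk, which encodes myosin light chain kinase itself, did not pass, at 15.0 FPKM with TGF-β and 14.6 without it in the negative-control transfection. Camk4, picked out after its values were seen, lay under the filter at 1.10, 1.12 and 1.12 FPKM with TGF-β, against 0.126, 0.133 and 0.125 FPKM without it, in the same order of transfections.

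**Figure D3:**
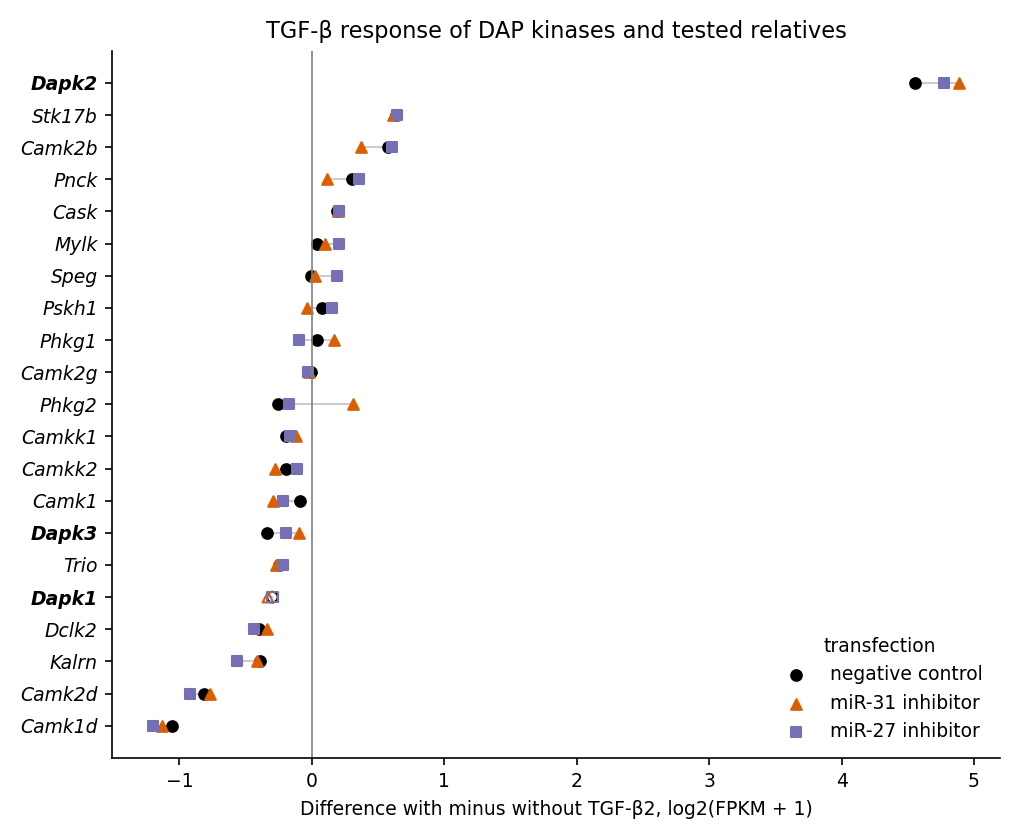
Difference with minus without TGF-β2 in log2(FPKM + 1) for the DAP kinases (bold), Stk17b and the 17 tested kinases of the calmodulin-dependent list, 1 symbol per transfection, with open symbols for Dapk1, which missed the filter. Dapk2 lies between 4.55 and 4.89, while the next highest of the genes drawn, Stk17b, lies between 0.61 and 0.64. Camk4, which also missed the filter and was higher with TGF-β2, is not drawn.

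Among 26 tested regulators and partners of DAP kinases, 4 rose and 10 fell (median -0.12), and 5 fell without either negative-control library. Unc5b, the netrin receptor that binds Dapk1 and signals death when netrin is absent, rose by 2.97 ± 0.10 (limma adjusted p = 7.58e-05). It stood at 19.2 FPKM with TGF-β and 1.39 without it in the negative-control transfection. Cebpb, a transcription factor reported to induce Dapk1 in interferon-treated cells, rose by 0.93, and Pawr (Par-4), a partner of Dapk3, rose by 0.60. Klf6, reported to activate DAPK2 in human cells, fell by 0.64. E2f1, reported to activate DAPK2 likewise, fell by 0.44. Atf4, a transcription factor that binds Dapk3, did not pass, and was at 343 FPKM in the TGF-β-treated miR-31 library, against 126 in its negative control.

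Of 14 tested genes for reported DAP kinase substrates, 3 rose and 7 fell (median -0.16), and 3 fell without either negative-control or either miR-27 library. Stx1a, a membrane fusion protein, rose by 2.26. The tropomyosin gene Tpm1, whose product Dapk1 phosphorylates at stress fibres, rose by 2.17 and stood at 773 FPKM with TGF-β and 166 without it in the negative-control transfection. Myl12b, a nonmuscle myosin light chain, rose by 0.32. Cdkn1a, the cell cycle inhibitor p21, fell by 0.76, and Rptor, the mTORC1 subunit reported as a target of DAPK2 in human cells, fell by 0.67. Becn1, the autophagy protein phosphorylated by Dapk1, did not pass, at 63.5 FPKM with TGF-β and 59.4 without it in the same transfection.

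Of 19 tested genes of myosin II and its other regulators, 5 rose and 9 fell (median -0.044). Without either negative-control library 3 fell, and without either miR-27 library 5. The myosin phosphatase subunit Ppp1r12b rose by 0.99 and the kinase gene Cdc42bpa by 0.48, while Rock2, a kinase that also phosphorylates myosin phosphatase, fell by 0.76 and Cdc42bpb by 0.69. Ppp1r12a, the phosphatase subunit on which Dapk3 acts in smooth muscle, did not pass, at 0.11.

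Of 36 tested autophagy genes, 12 rose and 4 fell (14 and 2 after upper-quartile scaling; median 0.072). Without either negative-control library 6 rose and 2 fell, and without either miR-27 library 6 and 1. Rb1cc1, a subunit of the complex that starts autophagy, rose by 1.10, Wipi1 by 0.61 and Map1lc3a, a marker protein of autophagosomes, by 0.51, and Rptor fell by 0.67 as above. Of 36 tested apoptosis genes, 8 rose and 11 fell (11 and 10 after upper-quartile scaling; median -0.069). Without either negative-control library 5 rose and 6 fell, and without either miR-27 library 5 and 9. The 4 with the largest differences were Fas and Bmf, which rose by 0.53 each, Birc2, which rose by 0.51, and Xiap, which fell by 0.61.

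**Figure D4:**
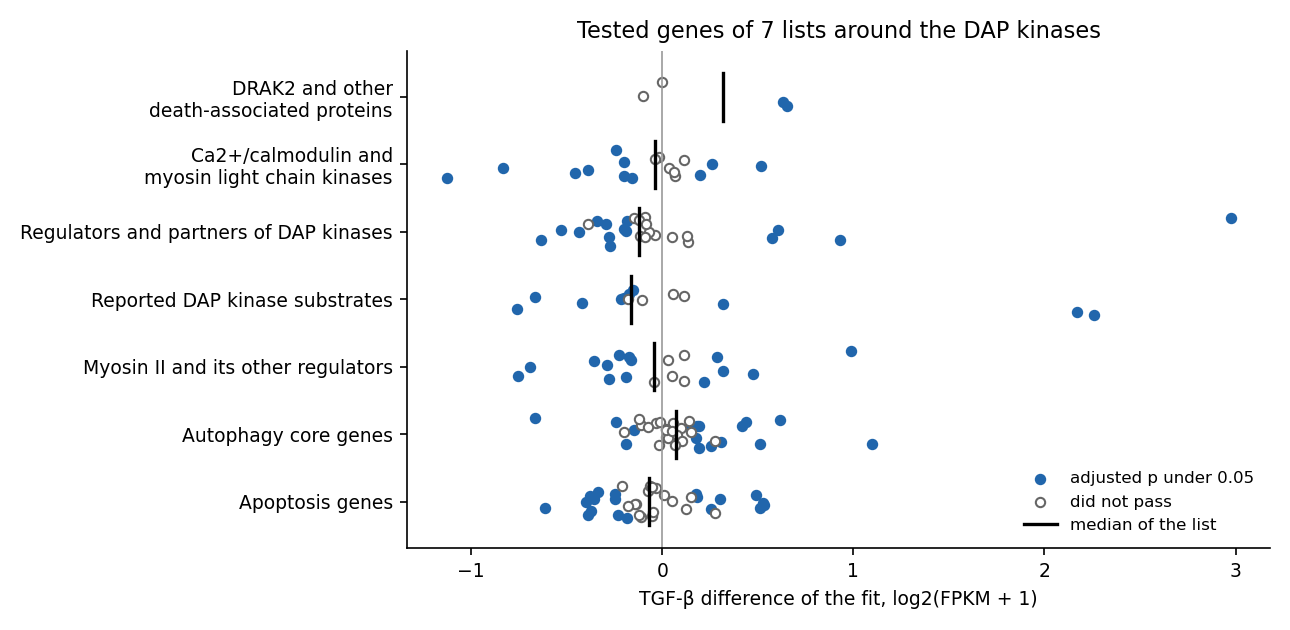
Fitted TGF-β difference in log2(FPKM + 1) of each tested gene in 7 lists, filled where the limma adjusted p was under 0.05 and open where it was not, with a black bar at the median of the list. Medians lie between -0.16 and 0.32, and the genes farthest to the right are Unc5b (2.97), Stx1a (2.26) and Tpm1 (2.17).

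Over the 7 lists, 83 of 146 genes passed, or 56.8%, with 36 higher and 47 lower. Without either negative-control library 46 passed, and without either miR-27 library 55. Over all 11816 genes the count also fell in these settings, from 5926 to 3566 and 3917. Without either miR-31 library 84 passed.

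The genes around the DAP kinases did not follow Dapk2. Within 200 kb of it, 6 of 8 listed names were tested, and their differences ranged from -0.25 to 0.51. Herc1, 78.2 kb after it, rose by 0.51. Ppib and Snx22, which are listed at 1 place, rose by 0.25 each, Snx1 fell by 0.25, and Fam96a, 19.3 kb before it, did not pass at -0.047. Near Dapk1, 3 of 8 names were tested. Of these, Ctla2b rose by 1.38 and 4930486L24Rik by 0.85, while Ctla2a did not pass. Ctla2a and Ctla2b are near-identical copies, so reads shared between them limit both values. Around Dapk3, 19 of 35 names were tested, of which 8 fell and the others did not pass in limma, with differences from -0.38 to 0.13. Its nearest neighbour Eef2, the elongation factor gene 0.497 kb before it, fell by 0.21, the same size as the difference of Dapk3. Pias4 and PIAS-gamma, both among the 8 that fell, are listed at 1 place.

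**Figure D5:**
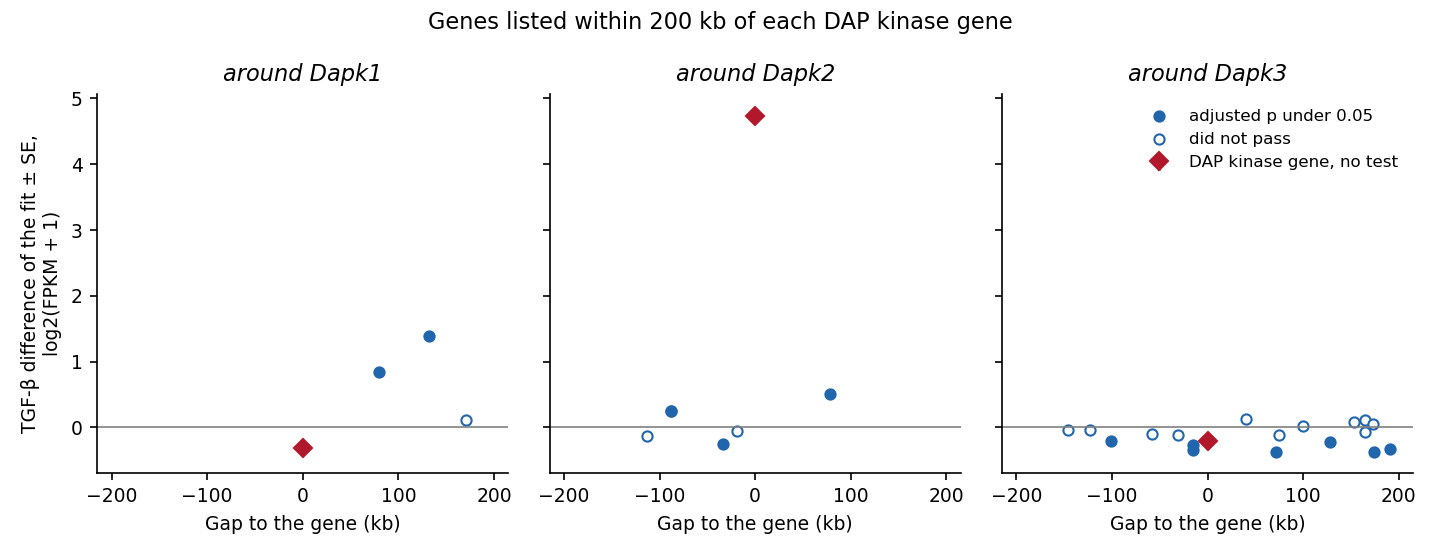
Fitted TGF-β difference ± SE in log2(FPKM + 1) of the tested genes within 200 kb of Dapk1, Dapk2 and Dapk3, against the gap to that gene in kb, negative before it and positive after it. The red diamond of Dapk2 at 4.74 stands above neighbours between -0.25 and 0.51, the neighbours of Dapk1 lie above it, and those of Dapk3 lie between -0.38 and 0.13 around its -0.21.

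The genes whose profile over the 6 libraries was most like that of a DAP kinase were ranked by the root mean square difference between centred log2(FPKM + 1) profiles. Nearest to Dapk2 were Tnnt2 (0.148), the integrin gene Itgb5 (0.377), the clotting factor gene Vwf (0.411), the endothelin gene Edn1 (0.427) and the proteoglycan gene Bgn (0.427). Their Pearson r with Dapk2 over 6 libraries was 0.995 or more. In all, 325 genes had an r of at least 0.99 with Dapk2, whose profile is mainly the split by TGF-β. Vwf was like Dapk2 also among the libraries with TGF-β, at 17.2, 23.0 and 21.3 FPKM in the control-inhibitor, miR-31 and miR-27 transfections, while Tnnt2 was flat there at 100, 102 and 101 FPKM. Nearest to Dapk1 were Nceh1 (0.012), Taf3 (0.016) and Tbcel (0.017), which fell with TGF-β by 0.30, 0.29 and 0.28. These are genes of higher level whose relative change was smaller, because the log2(FPKM + 1) scale shrinks that of Dapk1. Nearest to Dapk3 were AK085695 (0.016), Coq5 (0.016) and Sympk (0.020), which fell by 0.22, 0.20 and 0.20. A likeness over 6 libraries says nothing of shared control.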

How the data were processed

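Ribosomal RNA was depleted and directional libraries were made, per the labels' protocols. The authors deposited FPKM values, 1 column per library and 1 row per gene name. TopHat2 2.0.9 and Cufflinks 2.1.1 were used with build mm9, per the submitters' processing notes. Annotation, strand setting and filters are not given in the sources used here. Starts are counted from 1, after listed starts were found to count from 0. Absolute depth is not given. Fragment numbers are estimates from the steps of low FPKM values over genes with 1 transcript, are approximate, and cover counting error only.

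Genes averaging 1 FPKM or more were tested on log2(FPKM + 1) with limma 3.58.1 in R 4.3.3, in an additive model of inhibitor and TGF-β over 6 libraries, which compares TGF-β within each transfection. Tests were 2-sided with Benjamini-Hochberg adjustment over 11816 genes, a threshold of 0.05, 2 residual and 2.87 prior degrees of freedom. Noise and any interaction of inhibitor and TGF-β are not separated in the residual spread. Alternatives were other pseudocounts, filters, scalings and options, and leaving out each library. Leaving out 1 library takes its whole pair out of the TGF-β comparison, so either library of a pair gives the same TGF-β fit. It also leaves fewer residual degrees of freedom. Genes with a miR-31 site were also compared without the TGF-β-treated miR-31 library, an alternative chosen after seeing the data. The procedure was checked on simulated data for the TGF-β difference, but not for the inhibitor differences. The members, the lists and the tests were chosen with earlier results of these data known. Named genes were the members, the 4 tested genes of each list, other than markers, with the largest TGF-β difference, genes within 200 kb and the genes of most similar profile. Mylk, Camk4, E2f1, Atf4, Myl12b, Becn1 Ppp1r12a, Snora75, DAPK2, Eef1a1 and the cell type markers were named outside this rule, after their values were seen. Of 169 list symbols, 166 were in the table.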

Additional observations from a re-analysis of the deposited data

Results flagged for a closer look

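The difference of Dapk3 from the negative control had opposite signs in the 2 TGF-β states with either inhibitor, with 1 library on each side. With the miR-31 inhibitor it was 0.17 with TGF-β and -0.079 without it on the log2(FPKM + 1) scale. With the miR-27 inhibitor it was 0.071 with TGF-β and -0.071 without it. Both rest on the same negative-control libraries, in which Dapk3 was at 19.4 FPKM with TGF-β and 24.8 without it. The difference between the states was not tested.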

How the results depend on the processing

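The TGF-β fit compares within each transfection through its inhibitor term, and without that term 5450 genes were called, beside 5926. No paired analysis was possible by replicate number because each condition has 1 library and the labels carry no such numbers. With a pseudocount of 0.1 the TGF-β difference was 6.998 for Dapk2, with or without the filter, and -1.0004 for Dapk1. The TGF-β differences of the 3 genes kept their sign under every alternative run, as did the inhibitor differences of Dapk1 and Dapk2. That of Dapk3 for miR-27 was -0.00014 in the main setting and 0.00013 with a pseudocount of 0.1, with or without the filter. Leaving out 1 library at a time gave it -0.097 to 0.097, and -0.052 to 0.14 for miR-31. The limma adjusted p of Dapk2 for miR-31 was between 0.0541 and 0.771 over the alternatives, and for miR-27 between 0.257 and 0.975. Counts of genes called were 3566 to 6087 for TGF-β, 3 to 1137 for miR-31 and 1 to 12 for miR-27 when 1 library was left out. The lowest TGF-β count came without either negative-control library (3917 without either miR-27 library), and the 1137 without the miR-31 library that had no TGF-β. With no filter they were 0 for miR-31 and 0 for miR-27, also 0 for miR-27 with no filter and a pseudocount of 0.1, a setting chosen after seeing the data, and 13 for miR-31 with trend and robust options, beside 4 and 1 in the main setting. Under upper-quartile scaling 2 autophagy genes fell, beside 4. Genes called over the 7 lists numbered 46 to 84 when 1 library was left out. The cause of these changes was not tested. With 1 library per condition, no difference between 2 libraries has a replicate check.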
